A study of Homo sapiens with 6 samples.

Results

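The genes described here are 53 axonal, cytoskeletal and synaptic genes, with the neuronal repressor genes REST and RCOR1 among them, picked by symbol out of the 23368 symbols of a raw count table. RNA was sequenced from HCT116 cells, an established human colon cancer line, after treatment with siADNP, an siRNA against ADNP, or with siControl, a control siRNA. Each group held 3 libraries, described as biological replicates, and HCT116 was the line in both groups. The sources used here do not give the siRNA sequences, dose or time, or whether replicates came from separate cultures, and the p-values reflect how far these libraries vary, which may be technical in part.

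Neurons build their axons and synapses from proteins that most other cells make little of or not at all. L1-family and neurexin-neuroligin adhesion molecules join the membranes, SNARE proteins and their regulators release transmitter vesicles, scaffolds hold glutamate receptors opposite the release site, and microtubule-associated proteins, stathmins and kinesins build and supply the axon. In non-neuronal cells many of these genes are held down by REST, a zinc finger protein that binds the RE1 element and recruits corepressors, RCOR1 (CoREST) among them. ADNP, activity-dependent neuroprotector homeobox, carries zinc fingers and a homeodomain, acts at chromatin and is known for its role in neurodevelopment.

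ADNP itself averaged 53.9 ± 6.62 CPM in siADNP libraries and 164 ± 8.24 CPM in siControl libraries (SD, n = 3 each), where CPM is the read count scaled to library size with TMM factors (edgeR adjusted p = 2.62e-20). The ADNP level thus fits the labels, and the knockdown left 32.9% of the control level. Reads assigned to genes numbered from 7396771 to 8726017 in siADNP libraries and from 8282290 to 10265175 in siControl libraries. The epithelial origin of the line was visible in both groups: KRT8, a keratin of simple epithelia, averaged 1302 CPM with siADNP and 1297 CPM with siControl, and EPCAM, an epithelial adhesion molecule, 328 and 335 CPM, while VIL1 and CDX1, markers of mature intestine, had 0 reads. Of the 10 tested among 14 epithelial markers, 3 were called, near the share of all genes tested, of which 14.6% were called higher and 13.7% lower. The tight junction genes CLDN3 and CLDN4 were higher (2.47-fold and 1.19-fold, edgeR adjusted p = 1.85e-05 and 0.00691) and the keratin KRT19 lower (0.903-fold, edgeR adjusted p = 0.0203). The CLDN4 call ended with the GC correction and the KRT19 call in 5 of 17 alternatives (adjusted p up to 0.152 and 0.126).

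Of the 53 genes, 31 had enough reads to be tested, and 20 of them were higher with siADNP, 1 was lower and 10 were not called (edgeR's quasi-likelihood test, Benjamini-Hochberg adjusted over all 12489 genes tested, called at an adjusted p under 0.05). Among all genes tested, 14.6% were called higher and 13.7% lower. The 53 genes were chosen with earlier results of these data known, so this is not an independent comparison. The median log2 fold change, siADNP over siControl, was 0.39 for the 31 genes and -0.00128 for all genes tested. Every siADNP library stood above every siControl library in 20 of the 31 tested genes, and in 20.1% of all genes tested. Groups stood apart the other way in 2 of the 31, STMN1 and HOMER3, and in 20.7% of all genes tested. DESeq2 called 17 of the 31 genes higher and 1 lower, against 9.96% and 9.26% of all genes tested. It gave no adjusted p for SNAP25, and genes without one count as not called in these shares. Without a filter 19 of 48 were called higher, against 9.8%. With single libraries left out, the share of all genes called higher lay between 11.8% and 13.1%, and the share called lower between 10.4% and 12.1%. DLG4 and SNAP25 passed the filter on low counts only through their siADNP libraries, which favours a rise. Without them, 18 of 29 genes were called higher. Rises of at least 2-fold were seen in 6 of the genes, CNTNAP1, DLG4, MAP3K12, SNAP25, MAP1A and GRIN1, against 0.985% of all genes tested, and in 4 of 29 without DLG4 and SNAP25. Added together, the 31 genes held 1135, 1185 and 1150 CPM in siADNP libraries and 931, 951 and 971 CPM in siControl libraries. In RNA from a whole culture, more cells that express a gene and more RNA per cell cannot be told apart.

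**Figure D1:**
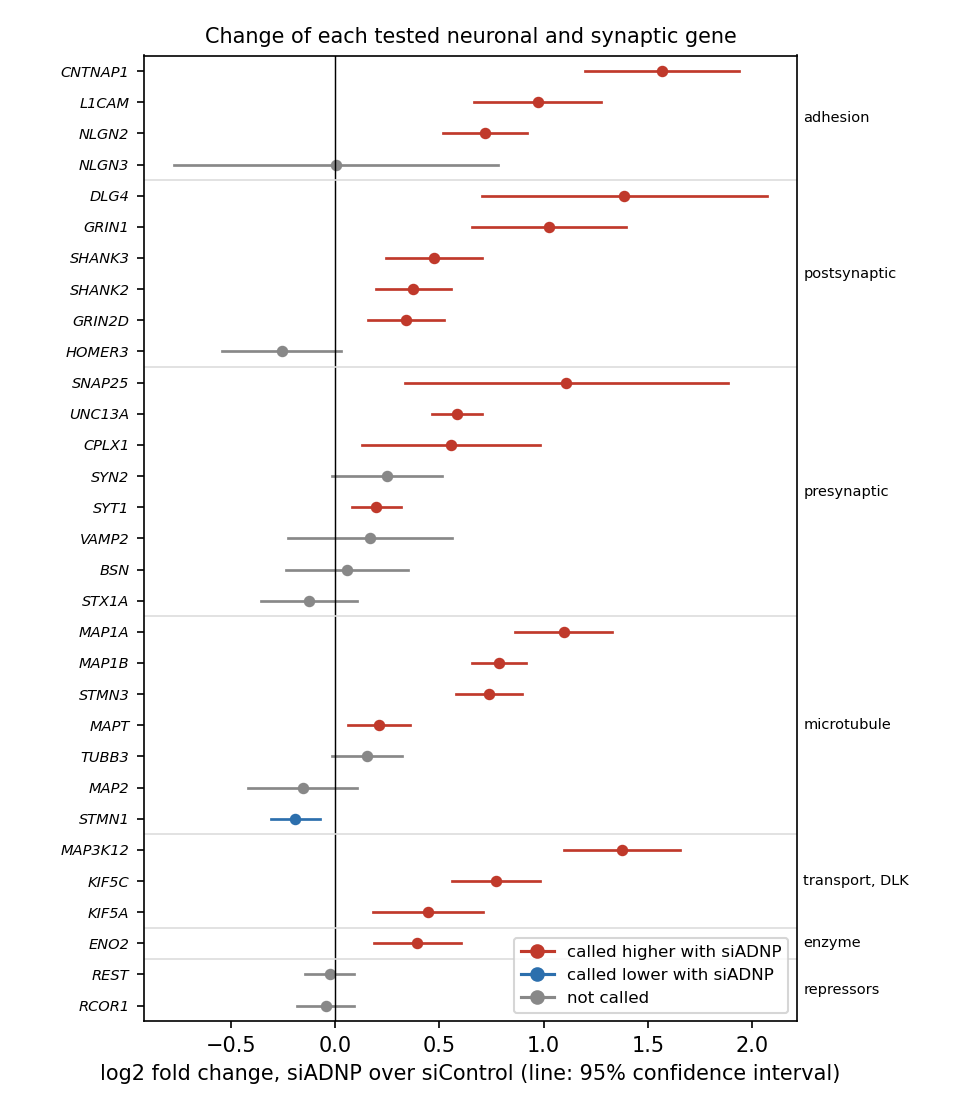
Log2 fold change of each of the 31 tested genes, siADNP over siControl, with its 95% confidence interval as a line, ordered by role down the page (DLK is the protein of MAP3K12). The 20 genes called higher lie right of 0, STMN1 is the gene called lower, and the intervals of REST and RCOR1 span 0.

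The 2 repressor genes did not pass the test. REST had 128, 141 and 120 CPM in siADNP libraries and 125, 136 and 136 CPM in siControl libraries. RCOR1, whose protein links REST to histone deacetylases and the demethylase LSD1, had 59.2, 66.8 and 58.3 CPM with siADNP and 61.0, 64.9 and 64.9 CPM with siControl. The groups overlapped in both genes. The log2 fold change of REST was -0.03, with a 95% interval from -0.14 to 0.09, and that of RCOR1 was -0.05, with an interval from -0.18 to 0.09 (edgeR adjusted p = 0.773 and 0.648), so changes larger than these bounds lie outside the intervals. Per kilobase of the longest annotated transcript, REST stood at 17.8 CPM with siADNP and 18.1 CPM with siControl, a level per length that among the tested genes only STMN1, SYT1, TUBB3 and, in siADNP libraries, STMN3 exceeded.

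Because REST acts through the RE1 element, promoter windows of the genes were read for its left and right arms. RefSeq windows of 300 bases (250 before to 50 after an annotated start, GRCh38.p14) were at hand for 38 of the 53 genes, 67 windows in all, and both strands were searched for the left arm CAGCACC and the right arm GGACAGC. The left arm was found in 6 of the 67 windows (8.96%) and in 7.75% of all 35116 windows, and the right arm in 5 (7.46%) and 6.03%, so the shares lay near the background. The exact arms in their canonical arrangement, with 2 bases between them, were in none of the 67 windows and in 15 of all windows. Only exact letters were searched, and sites outside the windows were not. In the window of SYN1, the left arm was followed after 2 bases by GGACAGT, the right arm but for its last letter. The window of UNC13A held both arms, on the same strand and 8 bases apart, and both arms at any distance occurred in 0.738% of all windows. Genes not called or not tested had an arm too: the left in NCAM2, NLGN1 and SYN1, and the right in BSN, GAP43, RCOR1 and REST. Among genes called higher, UNC13A, L1CAM and KIF5C had a window with a left arm. The 3 windows are printed 5′ to 3′ on the gene's strand with the arms in capitals, which read as their reverse complements GGTGCTG and GCTGTCC, and the window of CNTNAP1, the tested gene with the largest fold rise, is printed beside them as one without an arm. A match is a string of letters, and no binding was measured.
UNC13A (chr19:17688305-17688604, minus strand): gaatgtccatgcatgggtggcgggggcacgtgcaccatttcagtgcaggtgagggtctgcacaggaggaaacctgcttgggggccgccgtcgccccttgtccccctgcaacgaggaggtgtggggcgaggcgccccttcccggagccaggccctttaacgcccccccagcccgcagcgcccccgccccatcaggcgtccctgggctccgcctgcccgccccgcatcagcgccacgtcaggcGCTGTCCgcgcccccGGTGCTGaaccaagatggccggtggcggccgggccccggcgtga
L1CAM (chrX:153875965-153876264, minus strand): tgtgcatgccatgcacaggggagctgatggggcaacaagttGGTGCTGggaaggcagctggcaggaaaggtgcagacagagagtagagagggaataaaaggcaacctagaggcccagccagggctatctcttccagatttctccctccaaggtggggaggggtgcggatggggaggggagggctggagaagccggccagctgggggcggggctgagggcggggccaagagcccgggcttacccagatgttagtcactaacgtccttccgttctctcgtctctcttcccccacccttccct
KIF5C (chr2:148874977-148875276, plus strand): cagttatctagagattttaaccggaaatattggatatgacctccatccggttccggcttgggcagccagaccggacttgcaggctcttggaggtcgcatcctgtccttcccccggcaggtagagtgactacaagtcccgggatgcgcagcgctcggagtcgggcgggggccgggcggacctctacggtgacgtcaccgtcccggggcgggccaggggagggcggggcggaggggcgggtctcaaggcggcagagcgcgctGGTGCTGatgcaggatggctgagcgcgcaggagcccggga
CNTNAP1 (chr17:42682281-42682580, plus strand): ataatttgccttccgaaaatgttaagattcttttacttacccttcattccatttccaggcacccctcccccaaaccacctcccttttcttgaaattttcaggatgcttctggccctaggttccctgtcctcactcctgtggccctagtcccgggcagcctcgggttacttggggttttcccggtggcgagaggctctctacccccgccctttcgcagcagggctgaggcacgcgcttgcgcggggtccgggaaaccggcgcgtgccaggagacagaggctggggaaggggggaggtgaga

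Of the 8 adhesion molecules and synaptic organisers, 4 were tested and 3 rose, where 14.6% of all genes tested were called higher. CNTNAP1 (Caspr), which joins contactin in the axonal membrane beside the nodes of Ranvier, had 10.7, 11.3 and 8.81 CPM in siADNP libraries and 3.14, 3.34 and 3.98 CPM in siControl libraries. The lowest siADNP value was above the highest siControl value by more than the range within either group, and CNTNAP1 rose 2.96-fold (log2 fold change 1.57 ± 0.18, SE; edgeR adjusted p = 2.01e-08). L1CAM, the L1 adhesion molecule of growing axons, had 13.9, 14.7 and 10.7 CPM with siADNP and 6.73, 6.69 and 6.75 CPM with siControl. Its siControl libraries were almost level and its siADNP libraries spread more widely, with no overlap, and L1CAM rose 1.96-fold (log2 fold change 0.97 ± 0.15, edgeR adjusted p = 4.75e-06). NLGN2, the neuroligin of inhibitory synapses, had 34.9, 37.5 and 31.6 CPM with siADNP and 18.6, 24.7 and 19.7 CPM with siControl, again without overlap, and rose 1.65-fold (log2 fold change 0.72 ± 0.10, edgeR adjusted p = 6.49e-07). NLGN3, another neuroligin, stayed near the lower limit of what could be tested, at 1.20 ± 0.218 CPM with siADNP and 1.19 ± 0.316 CPM with siControl (SD, n = 3 each), and its 95% interval of -0.77 to 0.78 on the log2 scale leaves room for changes in either direction. NCAM1 and NRXN2 were not tested, with 32 and 20 reads over the siADNP libraries and 19 and 10 over the siControl libraries.

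Glutamate receptor subunits and postsynaptic proteins gave 5 rises among 6 tested, or 4 among 5 without DLG4, where 14.6% of all genes tested were called higher. GRIN1, the obligatory subunit of NMDA receptors, had 9.50, 7.93 and 8.27 CPM in siADNP libraries and 3.48, 4.92 and 4.10 CPM in siControl libraries. Its groups were clearly apart, and GRIN1 rose 2.03-fold (log2 fold change 1.02 ± 0.18, edgeR adjusted p = 4.35e-05). GRIN2D, an NMDA receptor subunit with slow kinetics, had 32.2, 30.8 and 30.8 CPM with siADNP and 26.3, 22.4 and 25.7 CPM with siControl (1.26-fold, log2 fold change 0.34 ± 0.09, edgeR adjusted p = 0.00415). The call on GRIN2D, whose transcript is 69.0% GC, ended when counts were corrected for transcript GC content (log2 fold change 0.16, adjusted p = 0.213), in a range of 0.00241 to 0.213 over its alternatives (edgeR, DESeq2 and limma). DLG4, the PSD-95 scaffold, had the lowest siControl level per kilobase of all 31 genes, at 0.405 CPM with siADNP and 0.151 CPM with siControl. It had 2.70, 3.17 and 2.44 CPM with siADNP and 0.561, 1.57 and 0.964 CPM with siControl (log2 fold change 1.39 ± 0.34, edgeR adjusted p = 0.00185).

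The SHANK scaffolds, which link receptor complexes to actin, rose by modest steps. SHANK2 had 32.9, 29.1 and 32.1 CPM in siADNP libraries and 25.0, 24.2 and 23.1 CPM in siControl libraries (log2 fold change 0.37 ± 0.09, edgeR adjusted p = 0.00149). SHANK3 had 23.5, 24.5 and 21.7 CPM with siADNP and 13.2, 18.8 and 18.1 CPM with siControl (1.39-fold, log2 fold change 0.47 ± 0.11, edgeR adjusted p = 0.00157), and its log2 fold change was 0.30 with the GC correction. In SHANK3 siControl replicate 1 lay below the other siControl libraries, and the groups still did not overlap. SHANK1 was too weak to test, with 21 reads over the siADNP and 11 over the siControl libraries. HOMER3, which ties metabotropic glutamate receptors to the SHANK layer, pointed the other way. It had 9.89, 9.29 and 8.54 CPM with siADNP and 11.5, 10.1 and 11.6 CPM with siControl, and was not called (log2 fold change -0.26 ± 0.14, edgeR adjusted p = 0.179). HOMER3 passed with the GC correction, at -0.39 with an adjusted p of 0.0346, in a range of 0.0346 to 0.360 over its alternatives (edgeR, DESeq2 and limma).

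Among presynaptic genes, 4 of 8 tested rose, or 3 of 7 without SNAP25, against the same 14.6% of all genes tested. UNC13A (Munc13-1), the vesicle priming factor whose promoter window is printed above, rose with little spread. Per kilobase of transcript it stood at 10.6 CPM with siADNP and 7.10 CPM with siControl. It had 103, 105 and 105 CPM in siADNP libraries and 72.0, 67.0 and 70.5 CPM in siControl libraries (log2 fold change 0.58 ± 0.06, edgeR adjusted p = 9.12e-10). SYT1, the synaptotagmin that serves as calcium sensor of release, stood higher per kilobase, at 24.2 CPM with siADNP and 21.2 CPM with siControl, and moved less. It had 111, 124 and 115 CPM with siADNP and 96.2, 107 and 102 CPM with siControl. SYT1 rose 1.15-fold (log2 fold change 0.20 ± 0.06, edgeR adjusted p = 0.00937), and the call ended without siADNP replicate 2 (adjusted p = 0.0758) or siControl replicate 1 (0.0830), the highest of its alternatives, which began at 0.00111.

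The other presynaptic rises were in weakly expressed genes. SNAP25, a SNARE protein of the plasma membrane, had 1.67, 1.70 and 1.90 CPM in siADNP libraries and 0.673, 0.689 and 1.09 CPM in siControl libraries (2.16-fold, log2 fold change 1.11 ± 0.38, edgeR adjusted p = 0.0264). Single libraries held 6 to 15 reads of SNAP25, and the call ended without siADNP replicate 2 (adjusted p = 0.0527) or 3 (0.0708), or without siControl replicate 1 (0.0883) or 2 (0.0967), the highest of its alternatives, which began at 0.0195. CPLX1, a complexin that clamps and assists SNARE fusion, had 7.45, 4.76 and 5.15 CPM with siADNP and 4.26, 3.54 and 3.98 CPM with siControl (1.47-fold, log2 fold change 0.56 ± 0.21, edgeR adjusted p = 0.0441). The CPLX1 result leaned on siADNP replicate 1, without which the log2 fold change was 0.34 and the adjusted p 0.304, the highest of a range that began at 0.0238. It also ended without siControl replicate 1 (0.0596), 2 (0.147) or 3 (0.0807), with DESeq2 (0.142), with limma on the deposited log2 values (0.0512), and with the GC (0.186) or length (0.0530) correction.

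The presynaptic genes that were not called were SYN2, a synapsin, the SNARE proteins VAMP2 and STX1A, and BSN, the active zone scaffold bassoon. SYN2 averaged 13.7 ± 0.732 CPM with siADNP and 11.5 ± 1.55 CPM with siControl (SD, n = 3 each). VAMP2 averaged 5.56 and 4.98 CPM, STX1A 15.9 and 17.3 CPM, and BSN 9.97 and 9.65 CPM, with siADNP first. In all 4 genes the groups overlapped. Their log2 fold changes lay between -0.13 and 0.25 (edgeR adjusted p from 0.156 to 0.813). The vesicle protein synaptophysin (SYP), the synapsin SYN1 and the complexin CPLX2 were not tested, with 10, 10 and 3 reads over the siADNP libraries and 14, 9 and 3 over the siControl libraries.

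**Figure D2:**
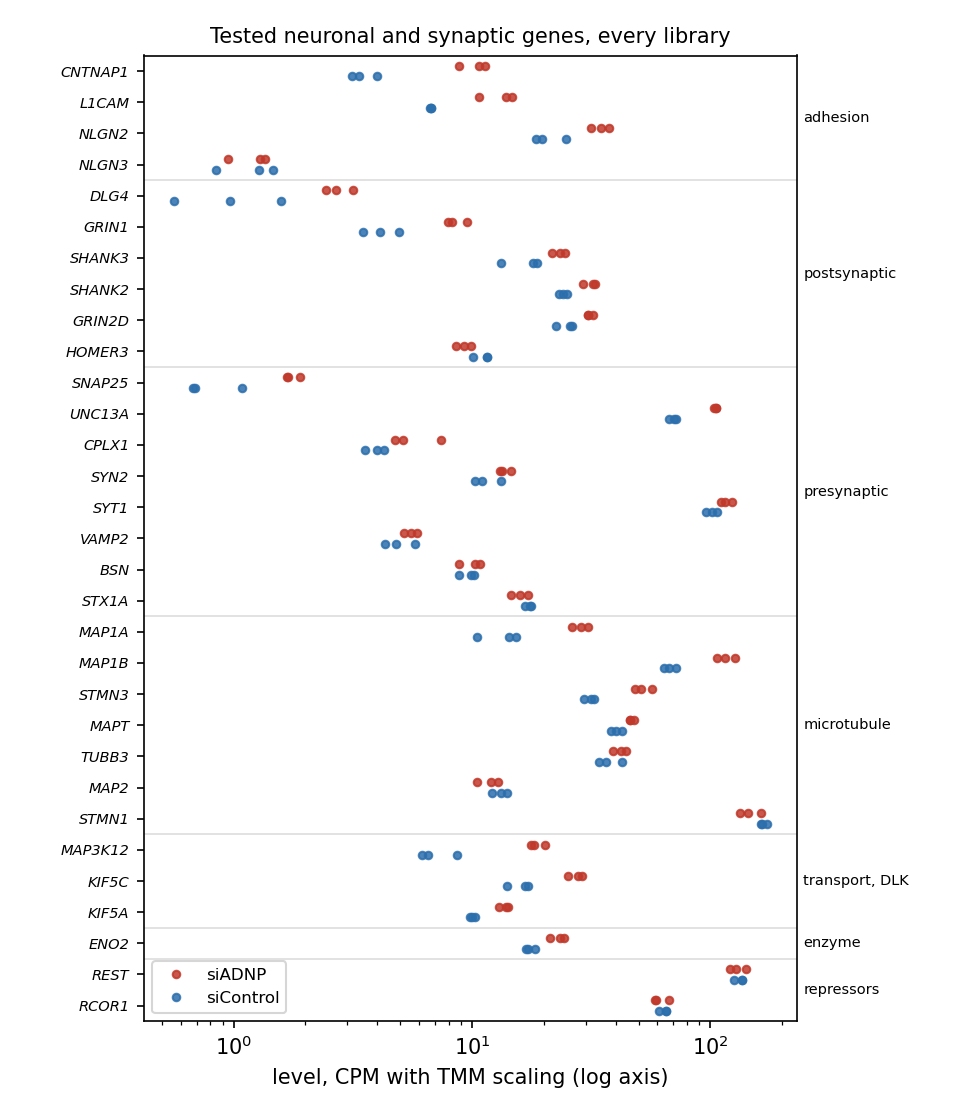
Level of each tested gene in every library, in CPM on a log axis, with siADNP libraries above siControl libraries in each row and genes ordered by role and then by fold change. The groups stand apart in CNTNAP1, L1CAM, UNC13A, MAP1A, MAP1B and MAP3K12, and mix in NLGN3, STX1A, REST and RCOR1.

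Of the 7 microtubule proteins tested, 4 rose and 1 fell, against 14.6% called higher and 13.7% called lower among all genes tested. The large axonal proteins MAP1A and MAP1B, which bind and stabilise microtubules, both rose. MAP1A had 30.6, 26.3 and 28.6 CPM in siADNP libraries and 15.4, 10.5 and 14.3 CPM in siControl libraries (2.14-fold, log2 fold change 1.10 ± 0.12, edgeR adjusted p = 2.49e-09). MAP1B had 107, 126 and 115 CPM with siADNP and 67.0, 64.0 and 71.9 CPM with siControl (1.72-fold, log2 fold change 0.78 ± 0.06, edgeR adjusted p = 5.50e-12), the smallest p among the 31 genes. Both genes showed a wide gap between the groups. MAPT, which encodes tau, had 46.1, 47.9 and 46.0 CPM with siADNP and 38.3, 40.3 and 42.7 CPM with siControl (1.16-fold, log2 fold change 0.21 ± 0.07, edgeR adjusted p = 0.0303). The MAPT call was fragile: it ended without siADNP replicate 2 (adjusted p = 0.0986), without siControl replicate 1 (0.138) or 2 (0.0740), with no filter (0.0513), with DESeq2 (0.112), with the length correction (0.0541) and with the GC correction, at 0.10 (adjusted p = 0.335), or 0.356 with the replicate block, the highest of a range that began at 0.0157. MAP2, the microtubule-associated protein of dendrites, averaged 11.8 ± 1.16 CPM with siADNP and 13.2 ± 0.925 CPM with siControl (SD, n = 3 each) and was not called (log2 fold change -0.16, 95% interval -0.42 to 0.11, edgeR adjusted p = 0.390).

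Stathmins bind tubulin dimers and destabilise microtubules, and the 2 that were expressed differed in direction. STMN3, a stathmin of neurons, had 57.0, 48.5 and 51.1 CPM in siADNP libraries and 29.5, 32.6 and 31.6 CPM in siControl libraries (1.67-fold, log2 fold change 0.74 ± 0.08, edgeR adjusted p = 3.41e-09). STMN1, the widely expressed stathmin of dividing cells, had 133, 144 and 163 CPM with siADNP and 164, 165 and 173 CPM with siControl. STMN1 was the gene called lower (log2 fold change -0.19 ± 0.06, edgeR adjusted p = 0.0116), although siADNP replicate 3 came close to the siControl libraries. Its call ended without siADNP replicate 1 (log2 fold change -0.12, adjusted p = 0.130), without siControl replicate 3 (0.0604) and with the GC correction (-0.12, adjusted p = 0.113), in a range of 0.000911 to 0.130 over its alternatives (edgeR, DESeq2 and limma). The neuronal stathmins STMN2 and STMN4 were all but silent, with 0 reads over the siADNP libraries and 2 and 0 over the siControl libraries. TUBB3, the class III beta-tubulin used as a neuronal marker, was expressed in both groups, with 42.3, 39.1 and 44.1 CPM with siADNP and 36.5, 34.0 and 42.4 CPM with siControl. The TUBB3 groups overlapped through siControl replicate 3, and the gene was not called (log2 fold change 0.15, edgeR adjusted p = 0.168), but passed without that library (0.24, adjusted p = 0.0408, in a range up to 0.933). Beta-tubulin genes resemble each other closely, so reads of single members are less certain.

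All 3 tested genes of axonal transport and injury signalling rose, where 14.6% of all genes tested were called higher. MAP3K12, the kinase DLK that signals axon injury, had 20.2, 17.7 and 18.2 CPM in siADNP libraries and 6.17, 8.66 and 6.51 CPM in siControl libraries (2.59-fold, log2 fold change 1.37 ± 0.14, edgeR adjusted p = 9.12e-10). KIF5C, a neuronal heavy chain of conventional kinesin, had 25.2, 28.0 and 28.9 CPM with siADNP and 17.2, 16.7 and 14.0 CPM with siControl (1.71-fold, log2 fold change 0.77 ± 0.10, edgeR adjusted p = 4.48e-07). KIF5A, another neuronal heavy chain, had 13.0, 14.2 and 13.8 CPM with siADNP and 9.98, 10.3 and 9.77 CPM with siControl (1.36-fold, log2 fold change 0.44 ± 0.13, edgeR adjusted p = 0.00853). No siADNP library fell into the siControl range in these genes. KIF1A, a kinesin that carries synaptic vesicle precursors, had 3 reads over the siADNP and 1 over the siControl libraries. ENO2, the neuron-specific enolase, was the tested gene among the neuronal RNA-binding proteins and enzymes. It had 21.2, 24.3 and 23.3 CPM with siADNP and 18.4, 17.2 and 16.9 CPM with siControl (1.31-fold, log2 fold change 0.39 ± 0.10, edgeR adjusted p = 0.00366).

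Not all of the neuronal genes were detectable. Of the 22 genes that were not tested, 5 had 0 reads in all libraries: the adhesion molecule NCAM2, STMN4, the migration protein doublecortin (DCX), the growth cone protein GAP43 and the RNA-binding protein ELAVL4. With 51448589 gene reads in all, 0 reads allow a level of up to 0.0583 CPM, a limit that covers counting error. A further 12 had 1 to 12 reads in total, among them every neuronal intermediate filament listed (NEFL, NEFM, NEFH and INA) and the deubiquitinase UCHL1. The neurofilament light chain NEFL had 3 reads over the siADNP and 0 over the siControl libraries, and UCHL1 had 0 and 2. The remaining 5, NCAM1, NRXN2, SHANK1, SYP and SYN1, had 19 to 51 reads in total. When no filter was applied, the 17 genes with reads were tested and none was called (edgeR, smallest adjusted p = 0.185).

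The rises were set beside GC content, because transcripts rich in GC tended to be higher with siADNP across the whole table. Genes with a transcript of at least 60% GC were called higher in 25.4% of cases, and those under 45% GC in 8.18%. The 20 neuronal genes called higher had a median transcript GC of 55.4%, the other 11 tested genes 53.4%, and all tested genes 48.4%. In the class of at least 60% GC, 7 of 11 neuronal genes were called higher, and in the class under 45% GC, where the table as a whole leaned downward, 4 of 7 were (SNAP25, SYT1, KIF5C and MAP1B). SNAP25 passed the filter only through its siADNP libraries, which favours a rise. With counts corrected for GC content, 17 of the 31 genes were called higher, against 12.4% of all genes tested, and the median log2 fold change of the 31 was 0.31. These 17 include DLG4 and SNAP25, which both passed the filter only through siADNP libraries. The genes whose rise was lost were GRIN2D, CPLX1 and MAPT.

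**Figure D3:**
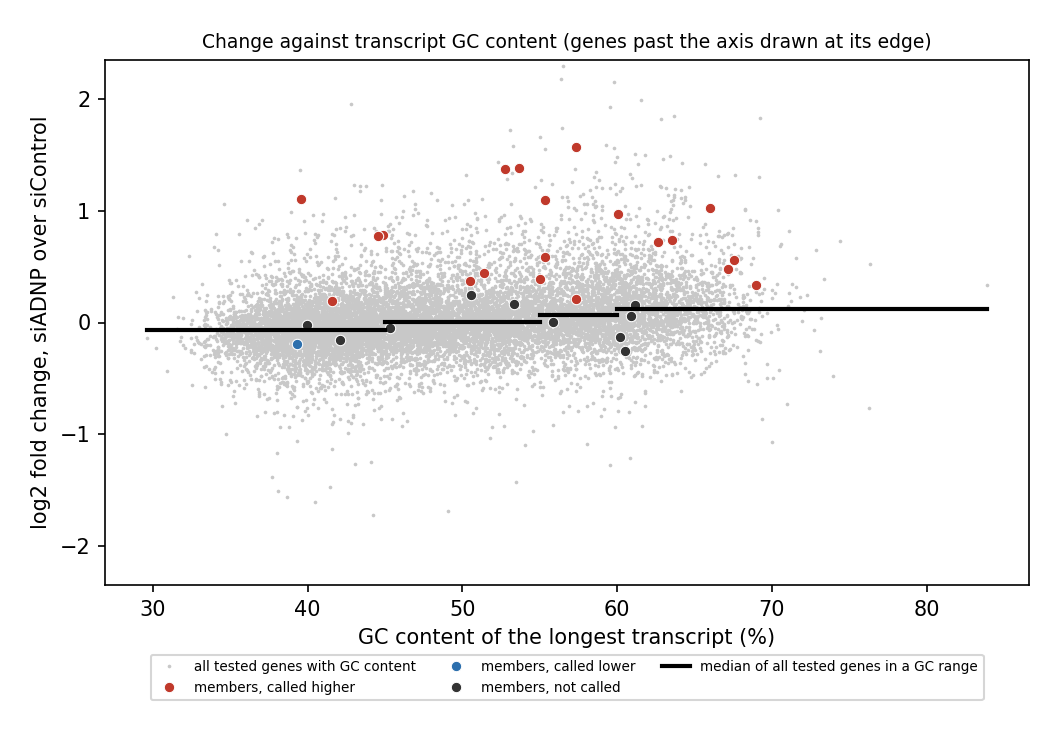
Log2 fold change, siADNP over siControl, against the GC content of the longest annotated transcript, for all tested genes with a GC value (grey) and for the 31 tested neuronal genes (coloured by call), with the median of all tested genes in each of 4 GC ranges as a bar. The medians climb from -0.07 under 45% GC to 0.12 at 60% GC or more.

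Several of the genes overlap a neighbour, and the strand setting of the counting is not given in the sources used here. In the GENCODE annotation, 14 of the 31 tested genes share exon sequence with another gene, and 4 of the called genes do so with a protein-coding gene on the opposite strand. MAP3K12 overlaps PCBP2, which averaged 482 CPM in siADNP libraries and 499 CPM in siControl libraries (log2 fold change -0.05, edgeR adjusted p = 0.419). DLG4 overlaps ACADVL, at 106 CPM with siADNP and 102 CPM with siControl (log2 fold change 0.04, edgeR adjusted p = 0.596). CNTNAP1 overlaps CCR10, with 2 reads over the siADNP and 4 over the siControl libraries. GRIN1 overlaps LRRC26, which had 13, 7 and 2 reads in siADNP libraries and 6, 2 and 1 reads in siControl libraries. GRIN1 itself had at least 61 reads in each siADNP and 31 reads in each siControl library, and the part of the neighbours in these values was not tested.

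Other neuronal genes were taken as lists by their role, with earlier results of these data known. They are to be read against the 14.6% of all genes tested that were called higher and the 13.7% called lower. Of 27 tested among 73 other synaptic genes, 13 were higher, none lower and 14 not called (12 of 25 higher without those that passed the filter only through siADNP libraries, PPFIA4 being one), and their median log2 fold change was 0.30. The vesicle GTPase RAB3A rose with a log2 fold change of 0.66 ± 0.13, the liprin PPFIA4 with 1.28 ± 0.30 and the vesicle protein SYNGR3 with 1.12 ± 0.28 (edgeR adjusted p = 0.000117, 0.00111 and 0.00257). Neuronal ion channel genes gave 9 rises, no fall and 10 not called among 19 tested, with a median of 0.33. The calcium channel subunits CACNA2D2, CACNA1H and CACNB3 rose with 0.75, 0.44 and 0.62 (edgeR adjusted p from 5.09e-05 to 0.000531). With the GC correction CACNA1H stood at 0.27 (adjusted p = 0.0185, in a range of 3.23e-05 to 0.0242 over its alternatives).

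Among neural progenitor and neuronal transcription factor genes 10 of 32 were tested, and 3 rose, or 3 of 9 without a gene that passed the filter only through siADNP libraries, beside 14.6% of all genes tested. With so few genes the count says little about the list. NES, the intermediate filament nestin of neural progenitors, averaged 24.5 ± 1.99 CPM with siADNP and 8.12 ± 0.882 CPM with siControl (SD, n = 3 each; log2 fold change 1.59 ± 0.12, edgeR adjusted p = 1.27e-12). The zinc finger factor MYT1 rose with 0.60 ± 0.17 (edgeR adjusted p = 0.00727), and the call ended without siADNP replicate 1 (0.40, adjusted p = 0.115, the highest of a range from 0.00239). The LIM homeobox factor LHX2 rose with 0.45 ± 0.14 (edgeR adjusted p = 0.0138), and missed the threshold with DESeq2 (0.0664) and with the GC correction (0.0880, and 0.105 with the replicate block, the highest of a range from 0.00993).

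Paralogues of the neuronal genes, most of them broadly expressed and some neuronal, gave 7 rises, 5 falls and 29 not called among 41 tested, where the median log2 fold change was 0.02. All genes tested were called higher in 14.6% and lower in 13.7% of cases. Without 2 that passed the filter only through siADNP libraries, 5 of 39 rose. CAMK2D, a calcium/calmodulin-dependent kinase subunit, fell with -0.40 ± 0.06, UNC13B (Munc13-2), the relative of UNC13A, with -0.33 ± 0.06, and the microtubule protein MAP7 with -0.32 ± 0.06, while the scaffold HOMER1 rose with 0.40 ± 0.06 (edgeR adjusted p from 2.08e-06 to 4.97e-05). UNC13B averaged 90.2 CPM with siADNP and 113 CPM with siControl, opposite in direction to UNC13A. GRIN2C, an NMDA receptor subunit like GRIN1 and GRIN2D, had the steepest fall of the list. It had 3, 12 and 6 reads in siADNP libraries and 18, 20 and 18 reads in siControl libraries (log2 fold change -1.21 ± 0.38, edgeR adjusted p = 0.0145). GRIN2C passed the filter through its siControl libraries, and its call ended without siADNP replicate 1 (adjusted p = 0.0988, the highest of a range from 0.00510). The subunit GRIN2B, in the same list, was called higher (log2 fold change 0.83 ± 0.30, edgeR adjusted p = 0.0316). GRIN2B passed the filter only through its siADNP libraries, and its groups overlapped. Cytoskeletal regulators of neurites gave 7 rises, 5 falls and 21 not called among 33 tested, with a median of 0.06, and 6 rises among 32 without SPTBN4, which passed the filter only through siADNP libraries. The spectrin SPTBN4 of axon initial segments and the JNK scaffold MAPK8IP2 rose with 1.42 ± 0.29 and 0.87 ± 0.16, and the kinesin KIF3B and the transport adaptor TRAK2 fell with -0.40 ± 0.06 and -0.29 ± 0.06 (edgeR adjusted p from 1.54e-06 to 0.000288).

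Of the partners of REST and RCOR1, all 23 on the list, both genes included, were tested, and 6 rose, 1 fell and 16 were not called, with a median of -0.00166. In the whole table, 14.6% of genes tested were called higher and 13.7% lower. The histone methyltransferase EHMT2 (G9a), the corepressor SIN3A and the demethylase KDM1A (LSD1) rose by small steps of 0.24 ± 0.05, 0.22 ± 0.05 and 0.21 ± 0.05 (edgeR adjusted p = 0.000689, 0.000870 and 0.00222). With the GC correction EHMT2 was no longer called (0.10, adjusted p = 0.157, or 0.189 with the replicate block, the highest of a range from 0.000239).

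**Figure D4:**
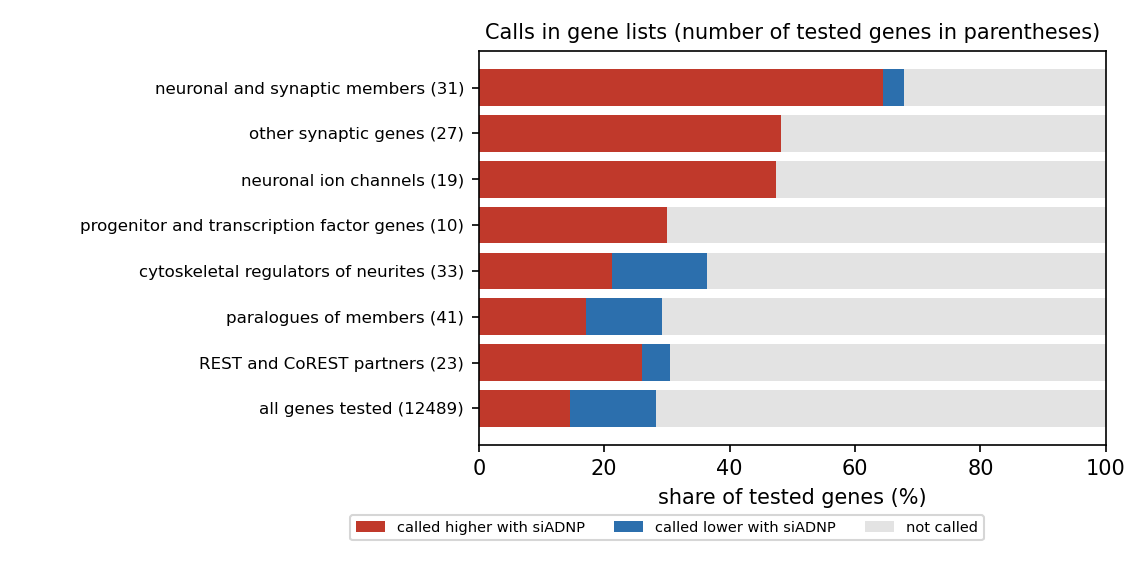
Share of tested genes called higher (red), called lower (blue) or not called (grey) in each gene list and among all genes tested, with the number of tested genes in parentheses. The neuronal and synaptic genes, the other synaptic genes and the ion channels have the longest red bars, at 64.5%, 48.1% and 47.4%, against 14.6% of all genes tested. The genes and lists were chosen with earlier results of these data known, so the bars are not an independent comparison.

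Markers of other cell types summed to less than the epithelial markers, which held 3158 to 3386 CPM in siADNP libraries and 3260 to 3329 CPM in siControl libraries. Single markers were not all low: MBP averaged 35.8 CPM with siADNP and 35.5 CPM with siControl, above many of the tested neuronal genes. Of 14 neuroendocrine markers, 4 had 0 reads (INSM1, PCSK1, SST and GCG), CHGA was near 0, and the summed level lay between 36.1 and 39.8 CPM in siADNP libraries and between 31.3 and 35.4 CPM in siControl libraries. ENO2, itself one of the 53 genes, and the granin SCG2 made up most of that sum, and SCG2 was not called (log2 fold change -0.12, edgeR adjusted p = 0.575). Of 12 glial markers, OLIG1, OLIG2, MOG, AQP4 and SOX10 had 0 reads, and the sum, mostly MBP and SLC1A3 (SLC1A3 was called higher, log2 fold change 0.24, edgeR adjusted p = 0.0273, a call that ended in 5 of 17 alternatives), lay between 72.7 and 78.1 CPM with siADNP and between 64.3 and 75.5 CPM with siControl. Fibroblast and smooth muscle markers summed to 16.7 to 21.9 CPM with siADNP and 17.1 to 20.3 CPM with siControl, with DCN, LUM and PDGFRA at 0. Within that sum, the muscle intermediate filament gene DES had 6.55, 4.87 and 3.39 CPM with siADNP and 1.68, 1.38 and 1.09 CPM with siControl. DES was called higher, 3.55-fold (edgeR adjusted p = 5.48e-06), but passed the filter on low counts only through its siADNP libraries, which favours a rise. The smooth muscle actin gene ACTA2 averaged 3.81 ± 0.431 CPM with siADNP and 7.96 ± 1.71 CPM with siControl (SD, n = 3 each) and fell to 48.7% of the control level (edgeR adjusted p = 0.000127). Blood markers summed to 9.74 to 11.4 CPM with siADNP and 6.99 to 8.52 CPM with siControl, with HBB at 0. Most of that sum was the macrophage marker CD68, at 9.44 CPM with siADNP and 7.04 CPM with siControl, which was called higher (1.34-fold, edgeR adjusted p = 0.0366) but not in 8 of 17 alternatives (adjusted p up to 0.134). The part of these cell types in the result was not tested.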

How the data were processed

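RNA was measured in 6 libraries of HCT116 cells, 3 treated with siADNP and 3 with siControl. The authors deposited read counts per gene symbol, made with STAR and HTSeq on hg19 per the submitters' processing notes, and a second table of values on a log2-like, variance-stabilised scale. DESeq2 is named in the same notes, with no role given. Their versions, annotation and strand setting: not given in the sources used here. Library preparation started from total RNA, per the labels' protocols. Of all reads, 26.4% to 28.3% were assigned to genes and 53.5% to 55.7% to no feature; rows without a gene name entered neither library sizes nor tests. The precision of a level follows from its reads, and the limit given for 0 reads (3 reads) covers counting error only.

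The test was edgeR 4.0.16 under R 4.3.3 (TMM, filterByExpr with a minimum count of 10, glmQLFit, glmQLFTest, two-sided, Benjamini-Hochberg). The SE was derived from the log2 fold change and its F statistic. The test was also run on counts simulated from its own fitted model, which cannot show how the real counts depart from that model. Alternatives were other scalings and filters, DESeq2 1.42.0, limma 3.58.1 on the deposited log2 values, offsets from a spline on transcript GC or length (GENCODE v29, values for 96.8% of tested genes), the replicate number as a block, and leaving out each library. Figures used matplotlib 3.10.9. The genes and lists were chosen with earlier results of these data known. Called genes of the set with a mean of at least 1 CPM are named with every library's value, and up to 4 called genes of each further list with the smallest p. Some genes that this rule names are not reported here. PCBP2, ACADVL, CCR10 and LRRC26 were named for their overlap, and GRIN2C, GRIN2B, KRT8, EPCAM, VIL1, CDX1, SCG2 and other markers after their values were seen.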

Additional observations from a re-analysis of the deposited data

How the results depend on the processing

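Over 17 alternatives the count of neuronal genes called higher ran from 16 to 20 of 31, and 15 of the 20 genes were called in every alternative that gave a value. The share of all genes tested called higher ran from 9.8% with no filter to 16.8% with scaling to the upper quartile. The lowest count, 16, came without siControl replicate 1, where 11.8% of all genes tested were called higher. DESeq2 called 17 (9.96% of all genes tested), limma 19 (14.3%) and the length offset 18 (13%). The GC offset called 17 alone (12.4%) and 17 with the replicate block (11.5%), and no filter 19 of 48 (9.8%). The count called lower, 1, was 0 without siADNP replicate 1 or siControl replicate 3 (leaving out single libraries gave 0 to 1). With the GC offset, alone or with the replicate block, the gene called lower was HOMER3 and no longer STMN1. Replicate numbers appeared to be names only, since the deviations of same-numbered libraries correlated with 0.0238, -0.0352 and -0.0290; with the number as a block, 20 genes were higher and 1 lower, and 1694 and 1542 of all genes tested. Directions turned in 6 genes that were never called. NLGN3 stood at -0.00432 with no filter, -0.0881 with the GC offset, -0.0845 with the GC offset and replicate block, -0.0227 with the length offset, and -0.17 to 0.16 without single libraries. BSN stood at -0.0828 with the GC offset and -0.0835 with the block added, and -0.00572 to 0.13 without single libraries. REST stood at 0.0365 and 0.0354 in the same fits, and -0.0898 to 0.0249 without single libraries. KRT8 stood at -0.00242 with no filter, -0.0921 with the GC offset, -0.0922 with the block added, -0.0239 with the length offset and -0.0133 to 0.0275 without single libraries, SCG2 at -0.27 to 0.0505 without single libraries, and ACADVL at -0.0771 and -0.0775 with the GC offset, alone and with the block. The cause was not tested. Depth limits the 22 untested genes and the genes under 2 CPM.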
